A study of Mus musculus with 12 samples.

Results

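The 4 creatine kinase genes on the arrays, Ckb, Ckm, Ckmt1 and Ckmt2, and the myoglobin gene Mb were followed through populations sorted from differentiating mouse embryonic stem cells. They are 5 of the 18193 genes measured by a probe set that the platform annotation ties to a single gene. They have 8 such probe sets, and each gene is represented by the probe set with its highest mean log2 value over the 12 arrays. The other probe sets are given beside it. Of the 5 genes, 4 passed a filter on low values and were tested, and Ckmt2 did not pass it.

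The cells came from embryoid bodies, aggregates grown in hanging drops, taken apart on day 6 of differentiation. All of them carried a pair of reporters, the red protein dsRed under a second heart field reporter and the green protein eGFP under a cardiac enhancer. The second heart field is the progenitor pool that adds the outflow tract and right ventricle to the heart tube. Sorting on both colours gave 4 populations, each measured in experiments A, B and C on single-colour Affymetrix arrays made from 5 ug of total RNA. Double-positive cells carried both colours (Red+/Green+), red-only cells dsRed alone (Red+/Green-), green-only cells eGFP alone (Red-/Green+) and double-negative cells neither (Red-/Green-). The labels do not name the stem cell line or the sequences that drive the reporters. They do not say that the experiments were separate cultures, so p-values measure only the spread between these arrays.

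Creatine kinases move a phosphate group between ATP and creatine, which buffers ATP where it is used fast. Ckm encodes the muscle form and Ckb the brain form in the cytosol. Ckmt1 encodes the widespread and Ckmt2 the sarcomeric form in mitochondria, where they make phosphocreatine. In the developing rodent heart the brain form is made before the muscle form, and adult heart muscle is rich in the muscle and sarcomeric mitochondrial forms. Myoglobin stores oxygen in heart and skeletal muscle.

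The deposited values are linear intensities between 2.09 and 8820, with array medians of 6.29 to 6.73. Fold changes are differences of log2(intensity + 4.10), fitted with limma over all 12 arrays, and a call is a Benjamini-Hochberg adjusted p under 0.05 over 13698 genes. The 95% intervals and standard errors (SE) are those of that fit. There are 3 arrays per population, and their number limits the precision. Intensities of different probe sets are not on a shared scale, so each probe set is read against itself and by its rank on each array.

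Ckb was the creatine kinase gene with a large difference between the populations. It was highest in double-positive cells, 4.50-fold over double-negative cells on the log2(intensity + 4.10) scale, and intermediate in green-only cells. In double-positive cells Mb was 1.32-fold over its double-negative level on the same scale. Ckm and Ckmt1 passed the test in none of the 6 pairwise comparisons by limma, and Ckmt2 lay near the bottom of every array.

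**Figure D1:**
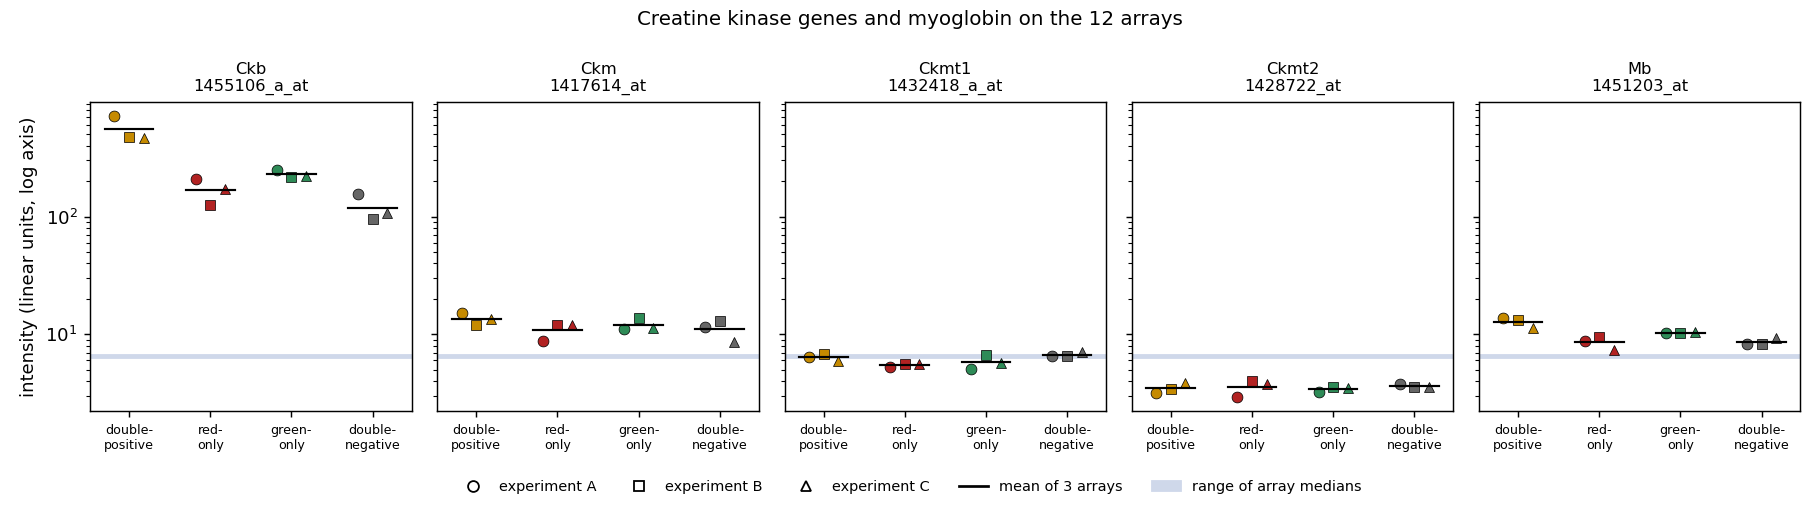
Intensity of each gene's chosen probe set on the 12 arrays (log axis, linear units), by population, with the experiment as the symbol, the mean of 3 arrays as a line and the range of array medians as a band. Ckb lies between 94.5 and 716 and is highest in double-positive cells, while Ckm and Mb lie between 7.41 and 15.1, Ckmt1 lies around the band between 5.04 and 7.06, and Ckmt2 lies under it.

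The promoters of the cytosolic pair are shown first, because Ckb and Ckm code for the same reaction, and Ckb was called between populations while Ckm was not. Each sequence is the 250 bases before the gene's start, 5′ to 3′ on the gene's own strand, from RefSeq on build GRCm38.p6. Ckb lies on the minus strand with its window at chr12:111672339-111672588, and Ckm on the plus strand at chr7:19410844-19411093. Capitals mark matches on either strand to an E-box (CANNTG), the site of muscle basic helix-loop-helix factors, a CArG box, the site of Srf, a MEF2 site, and the TATAAA box.
Ckb: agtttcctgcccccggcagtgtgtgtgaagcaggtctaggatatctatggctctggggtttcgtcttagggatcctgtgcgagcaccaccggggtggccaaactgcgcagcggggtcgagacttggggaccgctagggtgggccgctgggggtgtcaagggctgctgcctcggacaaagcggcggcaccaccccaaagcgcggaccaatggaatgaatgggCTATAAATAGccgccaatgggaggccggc
Ckm: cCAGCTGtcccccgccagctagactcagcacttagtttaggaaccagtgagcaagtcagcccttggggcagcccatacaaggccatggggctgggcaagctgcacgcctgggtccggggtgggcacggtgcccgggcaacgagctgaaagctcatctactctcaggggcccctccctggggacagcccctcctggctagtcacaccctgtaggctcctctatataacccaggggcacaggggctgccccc
In the Ckb window the capitals are 1 MEF2 site, starting 29 bases before the gene's start, and 1 TATAAA that overlaps it and starts at base 28. The window holds no E-box and no CArG box. In the Ckm window the capitals are 1 E-box, starting 249 bases before the start, with no match to the other 3 motifs. Among 32851 RefSeq promoter windows of this length, 2.92% hold a MEF2 site, 12.4% TATAAA, 66.2% an E-box and 1.47% a CArG box. The windows of Ckmt1, Ckmt2 and Mb hold no MEF2 site and no CArG box. A match is a description of the letters and not evidence of binding.

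Ckb (probe set 1455106_a_at, its only one) measured 716, 471 and 463 in the double-positive arrays of experiments A, B and C. The red-only arrays gave 208, 125 and 173, and the green-only arrays 248, 218 and 219. The double-negative arrays gave 157, 94.5 and 107. The lowest double-positive array thus lay above every array of the other populations. The green-only arrays all lay above the red-only and double-negative arrays, while red-only and double-negative arrays overlapped. Among all genes tested, 44.6% had such separate arrays between double-positive and double-negative cells, 31% between double-positive and red-only, 22.4% between double-positive and green-only, 32.6% between green-only and double-negative, and 18% between red-only and green-only cells. In each population experiment A was the highest.

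The means were 550 ± 144 in double-positive, 169 ± 41.6 in red-only, 229 ± 17.2 in green-only cells, and 119 ± 32.9 in double-negative cells (SD, n = 3 each). The signal was at the 98.6 to 99.1 percentile of the probe sets of its array in double-positive cells, and at the 92.6 to 95.5 percentile in double-negative cells. It was therefore among the brighter probe sets in every population.

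Double-positive cells exceeded double-negative cells in Ckb by 2.17 ± 0.21 on the log2 scale (SE, 95% interval 1.71 to 2.63, adjusted p = 6.61e-06). In the same comparison 2 of the 4 tested genes were called, Ckb and Mb, both higher, against 31.5% of all 13698 genes called, 13.9% higher and 17.6% lower. The ratio of intensities within an experiment was 4.57 in A, 4.99 in B and 4.33 in C. Single arrays or experiments left out gave 1.96 to 2.38, so the size did not rest on one library.

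Each reporter alone went with a smaller difference. In green-only cells Ckb was higher than in double-negative cells by 0.94 ± 0.21 (SE, adjusted p = 0.00677), the single call among the 4 genes, against 20.7% of all genes called and 9.33% called higher. That call was lost without experiment B (0.83, adjusted p = 0.0653) and without C (0.91, adjusted p = 0.108). In red-only cells the difference was 0.49 ± 0.21 (SE, 95% interval 0.03 to 0.95, adjusted p = 0.127). By limma 0 of the 4 genes were called there, against 23.6% of all genes called and 10.9% called higher. At an unadjusted p under 0.05 there were 2, and the share of all genes at that level is not given here.

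The experiment letters pair the arrays, and with the experiment as a block the red-only difference passed (adjusted p = 0.00634). It also passed with the A array of the double-negative cells left out (adjusted p = 0.0384), without the red-only array of B (0.0453) and without the whole of experiment A (0.0205). Within experiments A, B and C the red-only minus double-negative difference was 0.40, 0.39 and 0.67.

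Ckb in double-positive cells also exceeded each single-colour population. It was higher than in red-only cells by 1.68 ± 0.21 (SE, adjusted p = 0.000208), where Ckb and Mb were the 2 of 4 genes called, against 12.1% of all genes called and 5.94% called higher. It was higher than in green-only cells by 1.22 ± 0.21 (SE, adjusted p = 0.00582), where Ckb was the 1 gene of 4 called, against 5.62% of all genes called and 2.85% called higher. Without experiment C the difference from green-only cells was 1.30 with an adjusted p of 0.0951.

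Between the single-colour populations the red-only minus green-only difference of Ckb was -0.46 (95% interval -0.92 to 0.01, adjusted p = 0.343). None of the 4 genes, a count of 0 by limma, was called there, against 3.08% of all genes called. At an unadjusted p under 0.05 there was 1 (Mb), and the share of all genes at that level is not given here. The experiment block gave Ckb an adjusted p of 0.0364, and the difference was -0.25, -0.78 and -0.33 within A, B and C. The order of Ckb was thus double-positive, green-only, red-only and double-negative. Its neighbours red-only and double-negative, and green-only and red-only, were not separated past the threshold on all 12 arrays without the block.

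The joint effect of the colours was tested as double-positive minus red-only minus green-only plus double-negative. For Ckb it was 0.74 ± 0.30 (SE, 95% interval 0.08 to 1.39), with an adjusted p of 0.156 without and 0.00906 with the experiment block. No gene of the 4 passed without the block, a count of 0 by limma, against 10.5% of all genes called. At an unadjusted p under 0.05 there were 2 (Ckb and Ckmt1), and the share of all genes at that level is not given here. A difference among any of the populations was called for 2 of the 4 genes, Ckb (adjusted p = 3.78e-05) and Mb (0.0051), against 32.3% of all genes.

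**Figure D2:**
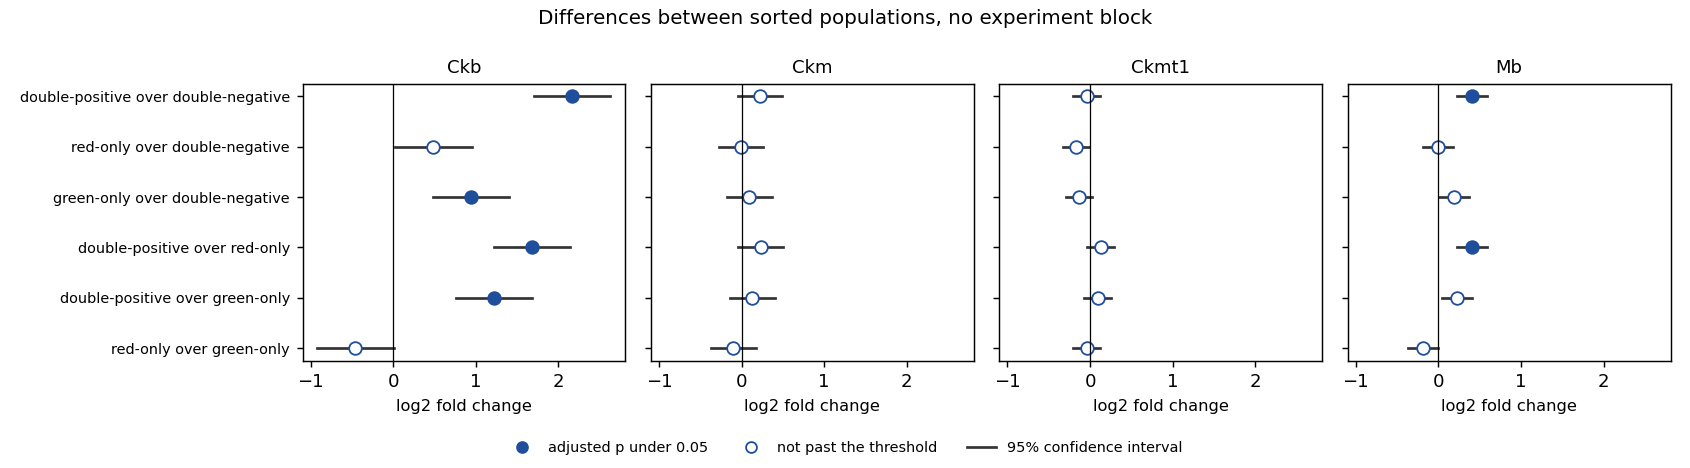
Log2 fold change of the 4 tested genes in the 6 pairwise comparisons, with 95% confidence intervals and filled points for an adjusted p under 0.05 in the fit without the experiment block. Ckb is filled in 4 comparisons and Mb in 2, while every point of Ckm and Ckmt1 is open.

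Markers of heart muscle cells, summed, had the same order of populations as Ckb. The summed intensity of 8 cardiomyocyte genes was 14650 to 18250 in double-positive, 2971 to 4366 in red-only, 7846 to 9935 in green-only and 313 to 458 in double-negative arrays. Of these 8, 7 were called higher in the double-positive over the double-negative population, against 13.9% of all genes. In the joint effect of the colours 5 of the 8 were called lower and 0 higher, against 10.5% of all genes called. Their median there was -1.76, while that of Ckb was 0.74 and did not pass without the block. In sorted populations, fewer cells of a type and less RNA per cell cannot be told apart. The neural markers, from a tissue where Ckb is also abundant, had a sum over 6 genes of 143 to 167 in double-positive and 187 to 245 in double-negative arrays. That sum was 118 to 131 in red-only and 127 to 163 in green-only arrays. Of 5 tested neural genes, 0 were called higher and 2 lower (Stmn2 and Tubb3) in double-positive over double-negative cells. Among all genes 13.9% were called higher and 17.6% lower. Over red-only cells 1 neural gene was called higher, Nes (0.48, adjusted p = 0.0431), and 0 lower, where 5.94% of all genes were called higher.

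Other measures differed between the populations too. The sum of 6 pluripotency markers was 96.2 to 116 in double-positive and 1427 to 1701 in double-negative arrays, and all 6 were called lower. In that comparison 17.6% of all genes were called lower and 13.9% higher. Of 5 blood markers 3 were called lower and 0 higher, with a sum of 57.5 to 105 in double-positive, 60.2 to 142 in red-only, 81.5 to 117 in green-only and 1068 to 1960 in double-negative arrays. The sum of 4 smooth muscle markers was 180 to 420 in double-positive, 74.3 to 119 in red-only, 199 to 327 in green-only and 109 to 122 in double-negative arrays. Of the 3 tested, Cnn1, a calponin, was called higher (2.74, adjusted p = 2.84e-06), and Smtn and Tagln were not. The actin probe sets gave a 3′ over 5′ signal ratio, a sign of RNA quality, of 1.55, 1.47 and 1.40 in double-positive and 1.36, 1.36 and 1.34 in double-negative arrays. The part of these in the Ckb and Mb differences was not tested. The green-only array of A stood apart in 5 endoderm markers, with a sum of 959 against 176 in B and 302 in C. Without that array Ckb in green-only over double-negative cells was 0.88 (adjusted p = 0.0168), and no call of the 4 genes changed.

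Mb (probe set 1451203_at) measured 13.9, 13.1 and 11.3 in the double-positive arrays of A, B and C. It was 8.81, 9.54 and 7.41 in red-only arrays and 10.2, 10.3 and 10.4 in green-only arrays. The double-negative arrays gave 8.29, 8.21 and 9.34. The double-positive arrays lay above all others, and the red-only and double-negative arrays overlapped. Among all genes tested, 44.6% had separate arrays between double-positive and double-negative cells, 31% between double-positive and red-only, and 22.4% between double-positive and green-only cells. All values were within a few units of one another, at the 54.8 to 68.4 percentile of their arrays.

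Mb averaged 12.7 ± 1.33 in double-positive, 8.59 ± 1.09 in red-only, 10.3 ± 0.103 in green-only cells, and 8.61 ± 0.633 in double-negative cells (SD, n = 3 each). Double-positive cells exceeded double-negative cells by 0.40 ± 0.08 on the log2 scale (SE, 95% interval 0.22 to 0.59, adjusted p = 0.00235). Over red-only cells it was higher by 0.41 ± 0.08 (SE, adjusted p = 0.0062). Neither difference reached 1.5-fold.

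The remaining comparisons of Mb did not pass. Double-positive minus green-only was 0.22 (95% interval 0.04 to 0.40, adjusted p = 0.166) and green-only minus double-negative was 0.18 (0.00 to 0.37, adjusted p = 0.154). Red-only minus double-negative was -0.01 with an adjusted p of 0.979, and red-only minus green-only was -0.19 with an adjusted p of 0.310.

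The Mb calls depended on the experiments and on the probe set. Without experiment B the double-positive minus double-negative difference was 0.36 with an adjusted p of 0.0523. The difference from red-only cells did not pass without A (adjusted p = 0.0665) or without B (0.0681). The gene's other probe set, 1422420_at, averaged 7.51 ± 0.309 in double-positive and 8.23 ± 1.32 in double-negative cells (SD, n = 3 each). Its difference was -0.08 ± 0.08 (SE, adjusted p = 0.525 with every probe set fitted), so the probe sets of Mb disagreed.

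Ckm (probe set 1417614_at) measured 15.1, 12.1 and 13.5 in double-positive arrays of A, B and C, and 8.82, 12.1 and 12.04 in red-only arrays. It measured 11.1, 13.8 and 11.2 in green-only arrays and 11.6, 13.1 and 8.60 in double-negative arrays. Double-positive arrays lay at or above the red-only arrays, touching at 12.1, and all other pairs of populations overlapped. The percentile on the array was 58.7 to 69.8.

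Ckm averaged 13.5 ± 1.48 in double-positive and 11.1 ± 2.27 in double-negative cells (SD, n = 3 each), a difference of 0.22 ± 0.13 on the log2 scale (SE, 95% interval -0.05 to 0.49, adjusted p = 0.218). Within experiments A, B and C that difference was 0.29, -0.08 and 0.47. Red-only and green-only cells differed from double-negative cells by -0.01 (95% interval -0.28 to 0.26) and 0.09 (-0.18 to 0.37). The upper bound of 0.49 lies under the lower bound of 1.71 for Ckb in the same comparison, and a missed threshold does not show that Ckm was equal in both populations. The other Ckm probe set, 1444643_at, lay between 6.30 and 9.72 and differed by 0.01 ± 0.10 (SE, adjusted p = 0.965).

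Skeletal muscle, the other tissue rich in Ckm and Mb, was read through 8 markers. Their sum was 76.3 to 93.3 in double-positive, 58.7 to 63.8 in red-only, 59.98 to 71.5 in green-only and 57.7 to 64.9 in double-negative arrays. Of the 4 markers tested, 2 were called higher in double-positive over double-negative cells, against 13.9% of all genes. They were Tnni2 (0.37, adjusted p = 0.00504) and Mylpf (0.89, adjusted p = 0.0018), which encode a fast troponin and a fast myosin light chain. Myod1, the myogenic master factor, averaged 6.41 in double-positive and 5.84 in double-negative cells, close to the array medians. Myf5 averaged 2.49 in double-positive and 2.68 in double-negative cells, near the floor of the arrays. Their part in the Mb difference was not tested.

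**Figure D3:**
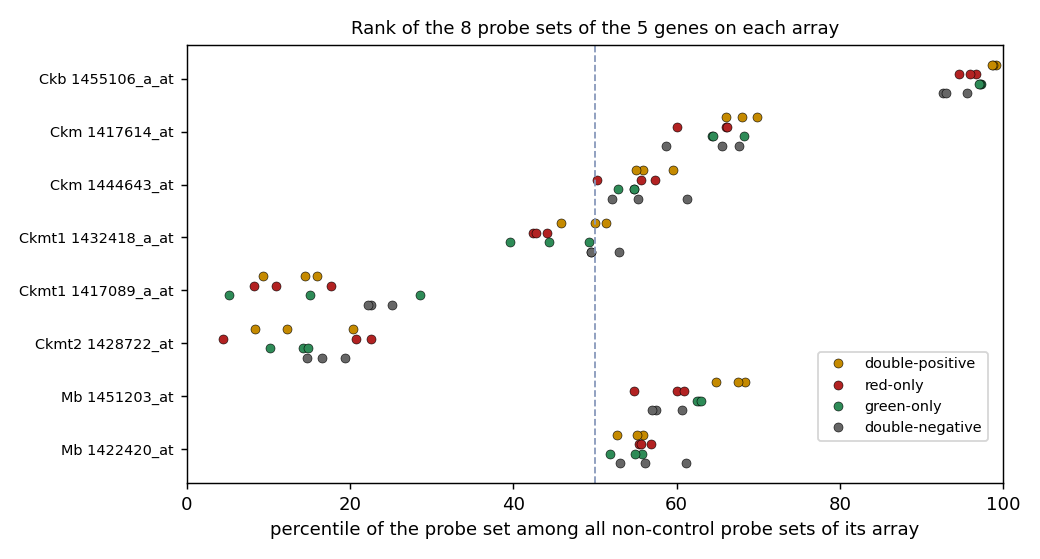
Percentile of each of the 8 probe sets among the non-control probe sets of its array, 12 arrays each, coloured by population, with the array median as a dashed line. Ckb lies between 92.6 and 99.1, both probe sets of Ckm and of Mb lie above the median on all 12 arrays, and Ckmt2 and the other Ckmt1 probe set lie under 30.

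Ckmt1 (probe set 1432418_a_at) measured 6.47, 6.87 and 5.95 in double-positive arrays, and 5.29, 5.64 and 5.60 in red-only arrays. It measured 5.04, 6.64 and 5.70 in green-only arrays and 6.49, 6.61 and 7.06 in double-negative arrays. It exceeded its array's median on 3 of the 12 arrays. The red-only arrays all lay under the double-negative arrays, as 37.9% of all genes had non-overlapping arrays in that comparison.

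The red-only minus double-negative difference of Ckmt1 was -0.17 (95% interval -0.33 to -0.01, unadjusted p = 0.0403, limma), with an adjusted p of 0.127. Double-positive minus double-negative was -0.04 (95% interval -0.20 to 0.12, adjusted p = 0.760). The other Ckmt1 probe set, 1417089_a_at, lay between 3.04 and 4.29, under the filter and under the median on all 12 arrays.

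Ckmt2, the sarcomeric mitochondrial form (probe set 1428722_at, its only one), lay between 2.92 and 4.02 over the 12 arrays, at the 4.42 to 22.5 percentile. It was above the array median on 0 of 12 arrays and was under the filter. Fitted with no filter, double-positive minus double-negative was -0.03 (adjusted p = 0.831). Signals this near the floor of 2.09 do not show whether the transcript was absent.

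The genes whose pattern was most like that of a member were found by Pearson's r of log2 values over the 12 arrays. The arrays share 4 populations and 3 experiments, so these r describe the pattern and carry no test. Ckb ran closest with Ndrg2 (r = 0.984), Trim63 (0.980), Inpp5a (0.974), Rtn2 (0.972) and Smpx (0.971). Trim63 encodes a muscle ubiquitin ligase and Smpx a small striated muscle protein. Trim63 averaged 33.4 in double-positive, 9.28 in red-only, 13.98 in green-only cells, and 6.77 in double-negative cells, the same order as Ckb. Smpx averaged 45.8, 5.00, 9.79 and 2.74 in those populations.

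With population means removed, r with Ckb was 0.889 for Ndrg2 and 0.699 for Smpx. The lowest r with Ckb were those of Sfxn1 (-0.973), Ifitm1 (-0.963) and Ifitm2 (-0.951). In all, 237 genes had an r above 0.9 with Ckb, against 25 with Mb and 1 each with Ckm and Ckmt1.

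Mb ran closest with Kcnmb1 (r = 0.938), Cox7a1 (0.929), Cavin3 (0.929), Pdhb (0.926) and Bphl (0.926). Cox7a1 encodes the heart and muscle form of a cytochrome oxidase subunit, and Pdhb a subunit of pyruvate dehydrogenase. Cox7a1 averaged 33.1 in double-positive, 7.58 in red-only, 16.3 in green-only cells, and 9.20 in double-negative cells. Its lowest r were those of Ptbp1 (-0.922), Mta2 (-0.920) and Smarcc1 (-0.915).

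The closest genes to Ckm were Opn1mw (0.904), Plaat1 (0.898), Fbxl15 (0.885), Pax3 (0.876) and Dbh (0.876), and the most opposed were Eml3 (-0.867), Stimate (-0.865) and Ubap2l (-0.859). The closest genes to Ckmt1 were Htt (0.904), Agt (0.896), Nfam1 (0.891), Acaca (0.871) and Cpne7 (0.869), and the most opposed were Pnoc (-0.901), Wls (-0.898) and Atp7a (-0.870).

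Other genes of the creatine and energy system were read from lists of the pathway. The list of creatine synthesis and uptake holds 3 genes, Gatm and Gamt, which make creatine in sequence, and Slc6a8, which carries it into the cell. In double-positive against double-negative cells 1 of the 3 rose and 1 fell, with a list median of 0.15 on the log2 scale against -0.01 over all genes tested. Of all genes 13.9% were called higher and 17.6% lower in that comparison.

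Gamt was the gene that rose. It measured 129, 119 and 105 in double-positive arrays of A, B and C, 50.1, 48.1 and 63.6 in red-only arrays, and 54.5, 53.4 and 69.1 in green-only arrays. The double-negative arrays gave 15.6, 18.6 and 29.9, under all arrays of the other populations. Double-positive cells exceeded double-negative cells in Gamt by 2.29 ± 0.18 (SE, adjusted p = 7.87e-07).

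Unlike Ckb without the block, Gamt was also called in red-only cells (1.22, adjusted p = 0.000286) as well as green-only cells (1.34, adjusted p = 0.000163) over double-negative cells. Whether Gamt and Ckb differ from each other in this was not tested. Over red-only cells the double-positive difference was 1.07 (adjusted p = 0.00152) and over green-only cells 0.95 (adjusted p = 0.00836), and neither passed without experiment B (adjusted p = 0.0684 and 0.140).

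Slc6a8, the creatine transporter, measured 47.8, 48.4 and 43.2 in double-positive arrays and 68.3, 60.3 and 54.3 in double-negative arrays. The groups did not overlap, as for 44.6% of all genes tested, and the difference was -0.36 ± 0.10 (SE, adjusted p = 0.0155). The call was lost without the double-negative array of A (adjusted p = 0.0745), without the double-positive array of C (0.0653) and without any whole experiment (0.059 in A, 0.0632 in B and 0.081 in C). Its other probe set differed by -0.17 (adjusted p = 0.245). Gatm averaged 6.29 in double-positive and 5.25 in double-negative cells and was not called (0.15, adjusted p = 0.465).

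**Figure D4:**
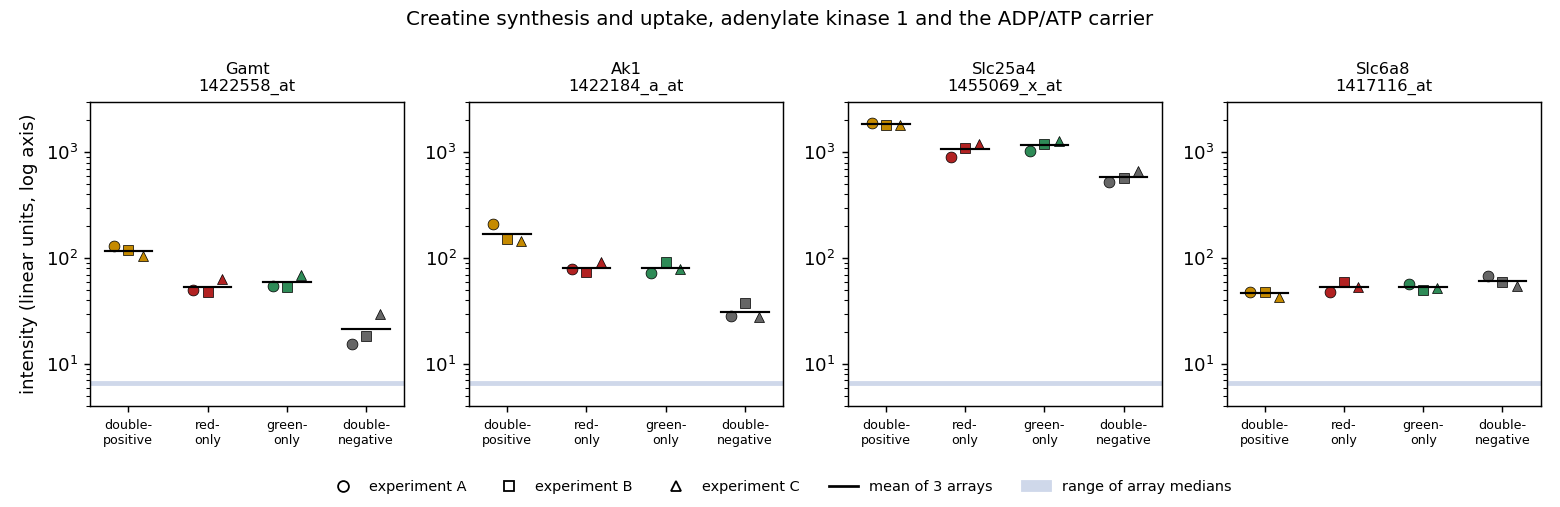
Intensity of Gamt, Ak1, Slc25a4 and Slc6a8 on the 12 arrays (log axis, linear units), by population, with the experiment as the symbol, the mean of 3 arrays as a line and the range of array medians as a band. Gamt, Ak1 and Slc25a4 are highest in double-positive and lowest in double-negative cells, and Slc6a8 averages 46.4 in double-positive and 60.9 in double-negative cells.

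Adenylate kinases are the other phosphotransfer system of muscle, where the cytosolic form makes ATP and AMP from a pair of ADP. Of 5 tested, 2 rose in double-positive over double-negative cells, where 13.9% of all genes did, with a list median of 0.13. Ak1, the cytosolic muscle form, averaged 169 ± 36.1 in double-positive, 81.7 in red-only, 80.8 in green-only cells, and 31.2 ± 5.61 in double-negative cells (SD, n = 3 each). Its double-positive over double-negative difference was 2.29 ± 0.15 (SE, adjusted p = 1.72e-07), with 1.29 for red-only and 1.27 for green-only cells over double-negative cells. The other Ak1 probe set, 1423988_at, differed by -0.01 and was not called.

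Ak3, the mitochondrial matrix form, rose by 0.50 (adjusted p = 0.0289). Without the double-positive array of A, the double-positive array of B or the double-negative array of B it did not pass (adjusted p = 0.0839, 0.104 and 0.131). It did not pass without experiment B (adjusted p = 0.349) or without C (0.0623), and the count of adenylate kinases called was then 1.

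Carriers and channels move adenine nucleotides and phosphate across the mitochondrial membranes. Of 6 tested, 2 rose in double-positive over double-negative cells, where 13.9% of all genes did, with a list median of 0.19. Slc25a4, the ADP/ATP carrier of heart and muscle, averaged 1846 ± 50.9 in double-positive, 1066 in red-only, 1171 in green-only cells, and 589 ± 74.7 in double-negative cells (SD, n = 3 each). Its difference was 1.65 ± 0.12 (SE, adjusted p = 3.63e-07), and 1424562_a_at gave 1.87, while 1434897_a_at gave -0.16 (adjusted p = 0.539). Vdac2, an outer membrane channel, rose by 0.46 (adjusted p = 0.00129).

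Among the sites to which creatine kinase is docked in muscle, 3 of 4 tested genes rose in double-positive over double-negative cells. The list median was 0.54, and 13.9% of all genes rose there. Myom1, a protein of the sarcomere's M-band, where the muscle form binds, averaged 284 ± 85.3 in double-positive, 33.5 in red-only, 111 in green-only cells, and 6.65 ± 2.08 in double-negative cells (SD, n = 3 each). It rose by 4.72 ± 0.25 (SE, adjusted p = 2.3e-08), although Ckm was not called. Fhl2, which tethers creatine kinase to titin, rose by 0.75 (adjusted p = 0.00286).

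Atp2a2, the calcium pump of heart muscle, rose by 0.34 in its chosen probe set (adjusted p = 0.00357), and that call was lost without experiment C (adjusted p = 0.0658). Atp2a2 probe sets 1416551_at and 1452363_a_at gave 3.69 (adjusted p = 5.29e-07) and 3.33 (1.45e-06), so the size depends on the probe set. Their mean intensities were 438.5 and 297.7, against 305.7 for the chosen one, which had the highest mean log2 value. The dimmer 1427251_at gave 0.85, and 1437797_at and 1443551_at, at means of 7.82 and 2.92, were not called. The list median uses the chosen probe set. The other tissue globins, Cygb (0.02, adjusted p = 0.916) and Ngb (0.14, adjusted p = 0.469), were not called in double-positive over double-negative cells. That is 0 of 2 by limma and 0 at an unadjusted p under 0.05. Of all genes 31.5% were called there. In red-only over double-negative cells Cygb was called higher (0.27, adjusted p = 0.0463), where 10.9% of all genes were. It averaged 6.99 and 5.05 there, close to the array medians.

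Of 13 regulators known from muscle to act on creatine kinase or myoglobin genes, 8 rose and 0 fell in double-positive over double-negative cells, where 13.9% of all genes rose, with a list median of 0.81. Mef2c, the cardiac MEF2 factor, rose by 4.20 ± 0.22 (SE, adjusted p = 2.14e-08), and Mef2a rose by 1.28 ± 0.12 (SE, adjusted p = 4.42e-06). Esrrg and Ppargc1a, which drive mitochondrial genes, rose by 2.42 (adjusted p = 2.46e-08) and 2.40 (adjusted p = 1.35e-06) in their chosen probe sets. With every probe set fitted, the dimmer Esrrg probe sets 1421747_at and 1457896_at gave 0.02 and 0.07 and were not called. The other Ppargc1a probe sets, at means of 3.39 to 6.86, gave 0.20 to 0.72, all but 1434100_x_at called. The other Mef2a probe sets gave -0.04 to 1.23, all but 1442623_at called. The size thus depends on the probe set. Myod1 and Myog, the skeletal muscle factors that act through E-boxes, differed by 0.08 (adjusted p = 0.525) and 0.14 (adjusted p = 0.259).

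In red-only against double-negative cells 6 of the 13 regulators rose, where 10.9% of all genes did. In green-only against double-negative cells 8 rose, where 9.33% of all genes did, and none fell in either comparison. In double-positive cells 5 rose over red-only cells, where 5.94% of all genes did, and 3 over green-only cells, where 2.85% did. These comparisons share arrays, so their counts are not independent.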

How the data were processed

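The authors deposited a table of linear probe set intensity values for the 12 arrays, and MAS5 is named in the submitters' processing notes, without a version or scaling target. Of its 45101 probe sets, those of 64 controls, 932 with several genes and 9160 with none were left out. Of the rest 204 had a symbol with no current entry. No further normalization was applied, and the pseudocount of 4.10 is the 25th percentile of all values. Each gene's probe set was the one with the highest mean log2 value, and a gene whose mean fell below 3.22 (the 40th percentile of probe sets) was not tested.

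limma 3.58.1 in R 4.3.3 fitted 1 mean per population to all 12 arrays with 8 residual degrees of freedom. Plots used matplotlib 3.10.9 and Python 3.11.15. The procedure was run on simulated data with independent noise on each array. The simulation held no experiment effect, so it does not cover the pairing of the arrays. Tests were two-sided except the F-test. The smallest p an exact permutation test allows between populations of 3 arrays is 0.1. Populations were taken from the sample titles, since the sort description misprints the double-negative population.

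Deviations from population means correlated at 0.116 to 0.424 in the 18 pairs of arrays of the same experiment. In the 36 pairs of different experiments they correlated at -0.362 to 0.0714. The letters were therefore taken to pair the arrays, with that check as the basis. The main fit leaves the pairing out, so its standard errors include the spread between experiments. For Ckb in red-only against double-negative cells the SE was 0.21 without and 0.11 with the block. The fit with the experiment as a block is given where it changes a call. Named beside the members were the 5 genes with the highest and the 3 with the lowest r, and up to 4 genes of each related list with the greatest change past the threshold. Gatm, Gamt and Slc6a8 were always named, as were the genes of a list with 0 calls and markers on which a statement rests. The members and lists were chosen with earlier results of these data known. The promoter windows are those of RefSeq, and no genome was used.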

Additional observations from a re-analysis of the deposited data

How the results depend on the processing

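Over all alternatives run, 0 differences of the 4 tested genes changed direction past the threshold. Ckmt2 was fitted under one alternative, no filter, where it was not called. The fit with the replicate block, which pairs the arrays by experiment, called 1 of the 4 genes, Ckb, in place of 0 in red-only against double-negative cells (adjusted p = 0.00634), in red-only against green-only cells (0.0364) and in the reporter interaction (0.00906), and changed no other call of the 4 genes. With a minimum change of 1.5-fold, 1 gene in place of 2 was called in double-positive against double-negative and against red-only cells, since Mb was lost. Leaving out single arrays or whole experiments gave 1 to 2 called genes for any difference among the populations, 1 to 2 in double-positive against double-negative cells, 1 to 2 against red-only and 0 to 1 against green-only cells. It gave 0 to 1 in red-only and 0 to 1 in green-only against double-negative cells. Leaving out an experiment leaves 2 arrays per population, so fewer degrees of freedom. Pseudocounts of 1 and 6.52, quantile normalization, no filter or one at the 60th percentile, every probe set, an intensity trend with the robust option, and only the arrays compared changed no call of the 4 genes. The Mb difference between double-positive and double-negative cells was 0.51 and 0.35 with those pseudocounts. Signal over background limits Ckmt1 and Ckmt2, and Ckm and Mb lay not far above the array medians. The deposited values used here have no detection calls.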
